A study of Mus musculus with 9 samples.

Results

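Ribosome biogenesis and nucleolar genes were followed in mouse kidney RNA across injury and a vesicle treatment. The set holds 56 genes listed by name for their roles in making ribosomes, out of 56923 gene identifiers in the count table. All 56 were found by symbol, and all 56 were among the 17036 genes that passed the filter on low counts. By role they are 4 genes of RNA polymerase I transcription, 5 nucleolar scaffold and multifunctional proteins, 4 box C/D and 4 box H/ACA small nucleolar ribonucleoprotein (snoRNP) proteins, 13 early and 6 late small subunit factors, and 20 large subunit factors. The kidneys came from wild-type mice in 3 groups of 3 libraries. Sham animals were operated without ischemia-reperfusion injury and received phosphate-buffered saline (PBS). The AKI_PBS group had ischemia-reperfusion acute kidney injury (AKI) and received PBS. The AKI_PTPi_mEVs group had the same injury and received milk extracellular vesicles (mEVs) that carried siRNA directed at PTP1B, the phosphatase that Ptpn1 encodes. A group given vesicles with no siRNA or a control siRNA is not among the libraries analysed here, so vesicle and siRNA cannot be told apart. Neither a time after injury nor a batch appears in the labels. Whether each library stands for its own animal is also not stated, and the p-values then describe only how far these libraries spread, which may be technical.

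Ribosomes are built in the nucleolus, where RNA polymerase I transcribes the long precursor of the ribosomal RNAs. Box C/D snoRNPs methylate that precursor and box H/ACA snoRNPs turn chosen uridines into pseudouridines. A large early particle, the small subunit processome, folds and cuts the small subunit part, and separate factors assemble the large subunit and carry both subunits to the cytoplasm. Tubule cells that survive ischemia dedifferentiate and regrow, and growing cells need new ribosomes.

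Library totals lay between 9467851 and 11389479 counts, so each library was sequenced to a similar depth. Levels are read counts scaled to a common library size by TMM (CPM), and changes are log2 fold changes from edgeR with their standard error (SE), called at a Benjamini-Hochberg adjusted p under 0.05 over all genes tested. Ptpn1, the target of the siRNA, rose in AKI_PBS against sham by 0.71 ± 0.15 (edgeR adjusted p = 0.0012) and fell by 0.53 ± 0.15 in AKI_PTPi_mEVs against AKI_PBS (edgeR adjusted p = 0.00862). Its level in AKI_PTPi_mEVs was 0.18 ± 0.15 above sham and not called (edgeR adjusted p = 0.455). Some lists of cell type markers moved with the groups as well. The summed level of 9 proximal tubule markers was 9581 to 12160 CPM in sham, 3305 to 5373 in AKI_PBS and 6835 to 10660 in AKI_PTPi_mEVs. That of 8 injured tubule markers was 1771 to 2140, 9371 to 13500 and 6488 to 12240 CPM in the same order. The sums of 7 neutrophil markers were 0.0977 to 0.371 CPM in sham, 12.1 to 26.2 in AKI_PBS and 0.549 to 0.872 in AKI_PTPi_mEVs. At these levels the 6 that were tested could pass the filter on low counts only through the AKI_PBS libraries. That all 6 were called higher in AKI_PBS than in sham was therefore nearly set by the filter and is no support. S100a8, Retnlg and Mmp8 had 0 counts in every sham library. Of 8 cycling cell markers 2 were called higher and 1 lower after injury (25% and 12.5%, beside 27.8% and 27.9% of all genes). Their sum was 73.9 to 115, 96.2 to 145 and 145 to 204 CPM. The sum of 4 thick ascending limb markers was 2030 to 2344, 1009 to 1548 and 1596 to 1979 CPM in the same order, with no overlap. Single markers differed: 2 (50%, beside 25.4% of all genes) were called higher and 1 (25%, beside 25.8%) lower in AKI_PTPi_mEVs than in AKI_PBS. The sum of 5 endothelial markers was 169.6 to 293.7, 180.6 to 310.4 and 137.3 to 203.6 CPM. That of 6 macrophage markers was 92.0 to 122, 64.4 to 107 and 66.5 to 80.3 CPM, with log2 changes of -2.44 to 2.28 after injury. The 6 lymphocyte markers, of which 0 passed the filter, summed to 2.53 to 4.79, 0.793 to 1.29 and 0.981 to 1.32 CPM. In bulk tissue fewer cells of a type and less RNA per cell cannot be told apart, and the part of these cell types in the results was not tested.

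Promoter letters are shown for members on which the results below turn. Of the 56 members, 50 have a sequence of the 250 bases before their annotated start in the RefSeq table of build GRCm38.p6, and both strands were searched. The E-box CACGTG, the letters read by MYC and related factors, was found in 2 of the 50 (4%), against 9.61% of the 11582 tested genes with such a sequence. The ETS core CCGGAAG was found in 13 of 50 (26%), against 14.4% of those genes. The GC box GGGCGG was found in 35 of 50 (70%), against 60.4%. The next lines show the 2 E-box windows, with the E-box in capitals, 5′ to 3′ on the strand of the gene. The Nop2 window is at chr6:125131796-125131855 on the plus strand and the Utp18 window at chr11:93885767-93885813 on the minus strand.
Nop2: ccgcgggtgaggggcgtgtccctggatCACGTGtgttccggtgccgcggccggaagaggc
Utp18: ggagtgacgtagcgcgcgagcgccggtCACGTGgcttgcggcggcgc
These 2 genes moved in different ways, as their levels below show. Among members with the ETS core are Gar1, which changed most in 2 of the 3 comparisons, Brix1 and Heatr1, printed here with the core, or its reverse complement, in capitals. They lie at chr3:129831406-129831466 (minus strand), chr15:10485986-10486046 (minus strand) and chr13:12395332-12395374 (plus strand).
Gar1: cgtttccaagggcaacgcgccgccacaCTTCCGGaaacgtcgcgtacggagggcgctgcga
Brix1: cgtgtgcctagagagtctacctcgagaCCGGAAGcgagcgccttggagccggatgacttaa
Heatr1: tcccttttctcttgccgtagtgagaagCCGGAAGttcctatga
Among the 13 members with the ETS core, 8 were called higher in AKI_PBS than in sham, against 24 of the 37 without it. The share of all genes was 27.8%. Between the injured groups 6 of the 13 were called lower and 2, Nop2 and Utp4, higher, against 10 and 5 of the 37. Among all genes 25.8% were called lower and 25.4% higher there. Emg1, Ltv1, Nhp2, Nolc1 and Polr1c, which also hold the core, were not called there. The 3 printed are all among those 6, so they do not stand for the 13. Both E-box genes also hold the ETS core. A match of letters is a description and was not tested for binding.

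After injury most of the set rose. In AKI_PBS against sham, 36 of the 56 members (64.3%) were called higher and 1 (1.79%) lower, beside 27.8% higher and 27.9% lower among all genes tested. At least 2-fold rises were called for 16 members, beside 14.0% of all genes. The median log2 change of the members was 0.59, against 0.03 for all genes. The share of all counts that fell on the 56 genes was 0.271 ± 0.00191% in sham, 0.423 ± 0.0143% in AKI_PBS and 0.355 ± 0.0366% in AKI_PTPi_mEVs (SD, n = 3 libraries each). When each of the 9 libraries was left out in turn, 30 members were called higher in every fit. Single fits called 22.1% to 27.1% of all genes higher, and the share of all genes called in every fit was not computed.

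Between the injured groups the set split. In AKI_PTPi_mEVs against AKI_PBS, 20 members (35.7%) were called lower and 8 (14.3%) higher, beside 25.8% lower and 25.4% higher among all genes. At least 2-fold falls were called for 2 members, Fbl and Gar1, beside 13.4% of all genes. The median change was -0.09, against -0.03 for all genes. Scaled to library totals the medians were -0.20 for the members and -0.13 for all genes, and 5 members were called higher. Of all genes 3757 were then called higher and 5048 lower. Without AKI_PTPi_mEVs replicate 2, 4 members were called higher, and without AKI_PBS replicate 3 there were 9. In all 9 fits with a library left out, 14 members were called lower and 3, Nop2, Bop1 and Ddx56, higher. Single fits called 20.1% to 24.9% of all genes lower and 21.3% to 24.9% higher, and the shares called in every fit were not computed.

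The vesicle group stayed above sham for many members. In AKI_PTPi_mEVs against sham, 27 members (48.2%) were called higher and 0 lower, beside 7.43% higher and 5.79% lower among all genes. The median was 0.50, against -0.01 for all genes. This count depended on single libraries. It was 7 without AKI_PTPi_mEVs replicate 2 (2.75% of all genes then higher), 8 without sham replicate 2 (2.96%), 11 without sham replicate 1 (3.67%) and 13 without AKI_PTPi_mEVs replicate 1 (4.72%), and 35 without AKI_PBS replicate 3. In all 9 fits with a library left out, 7 members were called higher, namely Ddx21, Nop56, Nop58, Bysl, Ltv1, Nop2 and Ftsj3. Single fits called 2.75% to 11% of all genes higher, and the share called in every fit was not computed. Each pair of these comparisons shares 3 libraries, so they are not independent of each other.

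**Figure D1:**
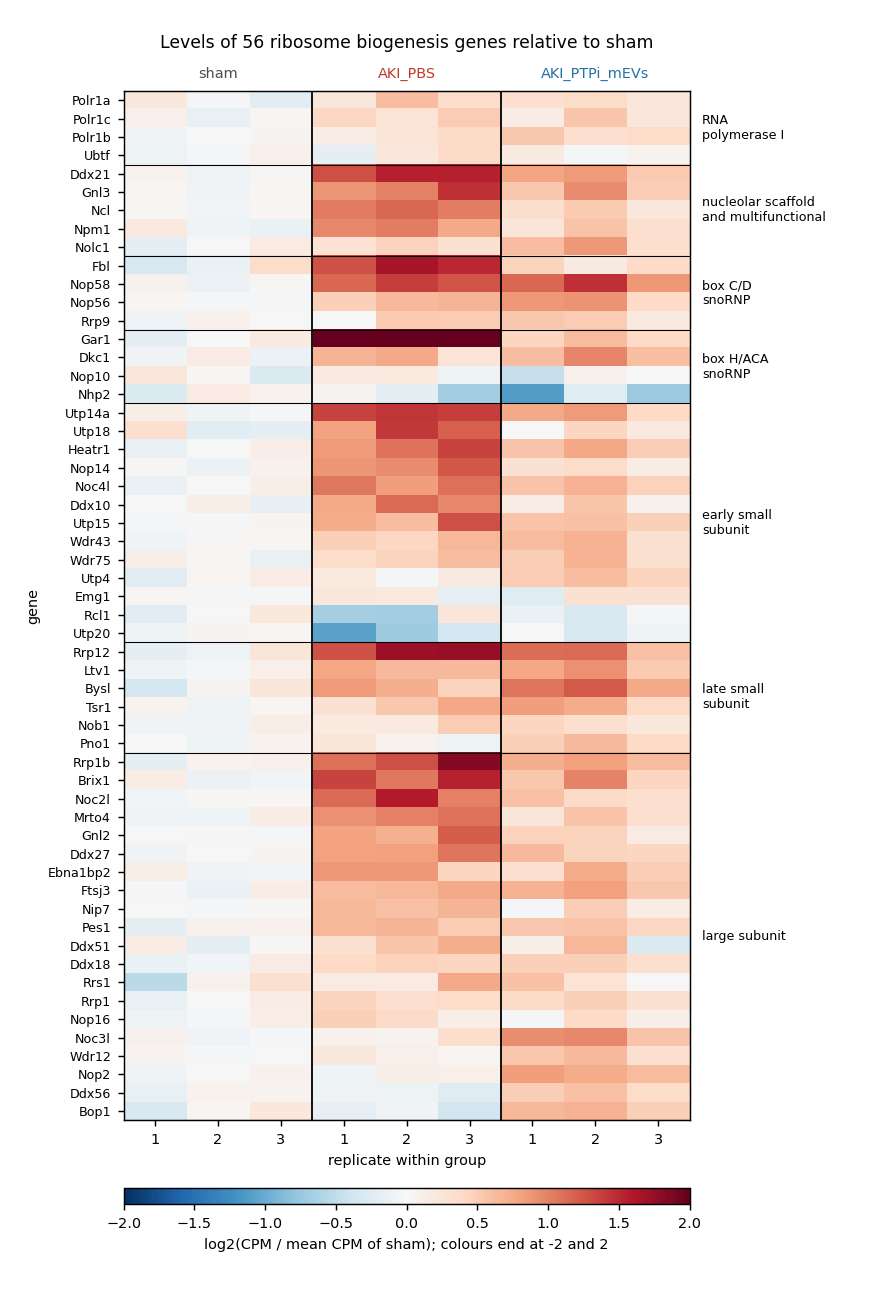
Level of each of the 56 members in each of the 9 libraries, as the log2 ratio of CPM to the member's mean in sham, with members in rows grouped by role and libraries in columns. Red is above the sham mean and blue below it. In these columns 20 members have their 3 highest values in AKI_PBS while 7 have them in AKI_PTPi_mEVs.

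Taking the libraries one by one, 20 members had all 3 AKI_PBS libraries above the other 6, beside 23.0% of all genes. All 3 AKI_PTPi_mEVs libraries lay above the other 6 for 7 members, beside 8.43% of all genes. These 7 were Utp4, Pno1, Nop2, Wdr12, Bop1, Ddx56 and Noc3l. No member had all 3 AKI_PTPi_mEVs libraries below the other 6, beside 5.63% of all genes.

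**Figure D2:**
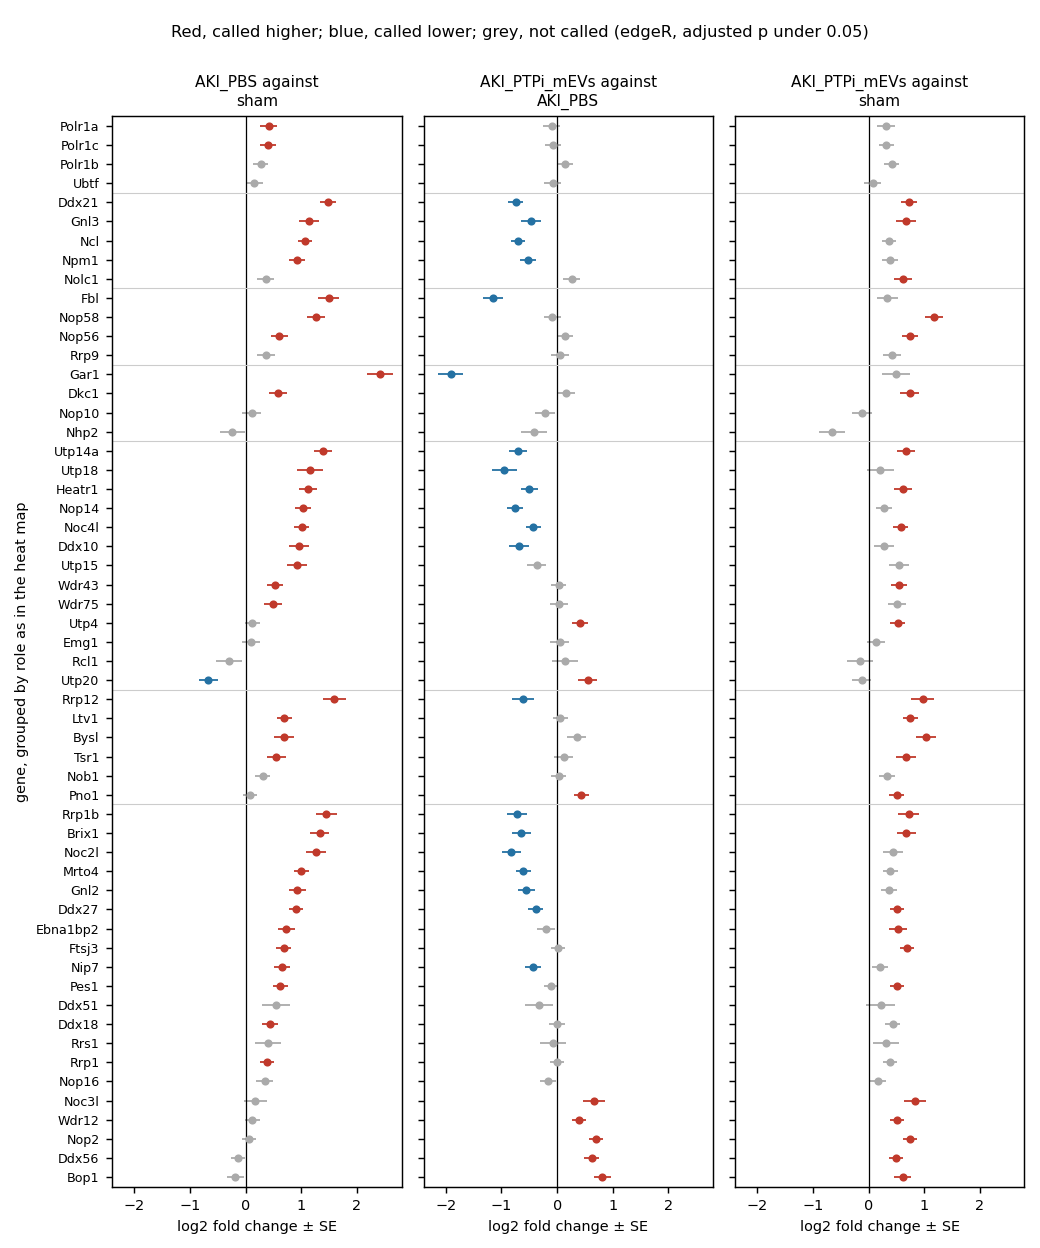
Log2 fold change of each member with its standard error in the 3 comparisons, from edgeR, grouped by role, in red or blue where called higher or lower and grey where not called. In AKI_PBS against sham 36 points are red and 1 blue, with Gar1 highest at 2.41 and Utp20 lowest at -0.68.

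Of the 4 RNA polymerase I genes, 2 (50%, beside 27.8% of all genes) were called higher after injury and 0 lower. Polr1a, the largest subunit, was at 31.6, 27.1 and 23.6 CPM in sham, 32.1, 42.0 and 35.3 in AKI_PBS and 34.6, 35.5 and 32.2 in AKI_PTPi_mEVs. All injured libraries lay above the sham libraries, with the lowest AKI_PBS library next to the highest sham library. The change in AKI_PBS against sham was 0.41 ± 0.15 (edgeR adjusted p = 0.037). Polr1c, a subunit shared with RNA polymerase III, was at 77.3, 65.7 and 74.4 CPM in sham, 96.2, 87.1 and 103 in AKI_PBS and 80.1, 106 and 85.2 in AKI_PTPi_mEVs. It rose by 0.40 ± 0.14 in AKI_PBS (edgeR adjusted p = 0.0288). Both calls were lost when single libraries were left out or no filter on low counts was used (0.38 and 0.36). Polr1a lost its call in 6 of the 9 fits, without sham replicates 2 or 3, AKI_PBS replicate 2 or any AKI_PTPi_mEVs library, at 0.30 to 0.40. Polr1c lost its call in 4 fits, without sham replicates 2 or 3 or AKI_PBS replicates 1 or 3, at 0.32 to 0.41. Polr1b, another catalytic core subunit, was 0.27 ± 0.14 above sham in AKI_PBS (edgeR adjusted p = 0.107, called at 0.35 with library totals) and 0.42 ± 0.14 above it in AKI_PTPi_mEVs (edgeR adjusted p = 0.0616, and called at 0.42 without AKI_PBS replicate 3). Ubtf, which binds the ribosomal DNA and opens it for transcription, changed by 0.16 ± 0.15 in AKI_PBS and was not called in any comparison. No gene of this role was called between the injured groups, beside 25.4% higher and 25.8% lower among all genes.

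Most genes for scaffold proteins of the nucleolus were called higher after injury and lower in the vesicle group than in AKI_PBS, with Nolc1 called in neither. Of the 5 members, 4 (80%, beside 27.8% of all genes) were called higher in AKI_PBS than in sham. In AKI_PTPi_mEVs 4 (80%, beside 25.8%) were called lower than in AKI_PBS. All 5 lay above sham in the vesicle group with no overlap, and the share of all genes that did so was not computed. In that comparison 3 (60%, beside 7.43% of all genes) were called higher. Ncl, nucleolin, which binds nascent ribosomal RNA, was at 209, 197 and 210 CPM in sham, 421, 453 and 416 in AKI_PBS and 263, 295 and 238 in AKI_PTPi_mEVs. The 3 groups did not overlap, and the vesicle libraries lay between the other groups and nearer to sham. Ncl rose by 1.07 ± 0.13 in AKI_PBS (edgeR adjusted p = 2.21e-05) and fell by 0.70 ± 0.13 in AKI_PTPi_mEVs against AKI_PBS (edgeR adjusted p = 0.000662). Against sham it was 0.37 ± 0.13 higher and not called (edgeR adjusted p = 0.0744, called at 0.37 without AKI_PBS replicate 3). Ddx21, an RNA helicase of the nucleolus, was at 23.2, 20.7 and 22.6 CPM in sham, 54.1, 65.4 and 65.5 in AKI_PBS and 38.2, 40.0 and 32.0 in AKI_PTPi_mEVs. Its groups also did not overlap. Its changes were 1.48 ± 0.14 in AKI_PBS against sham (edgeR adjusted p = 4.23e-06), -0.75 ± 0.14 between the injured groups (edgeR adjusted p = 0.000777) and 0.73 ± 0.14 in AKI_PTPi_mEVs against sham (edgeR adjusted p = 0.00672). Npm1, nucleophosmin, a chaperone of the outer nucleolar layer, had the same order of means. It rose by 0.92 ± 0.14 (edgeR adjusted p = 0.000164) and was 0.53 ± 0.14 lower in the vesicle group than in AKI_PBS (edgeR adjusted p = 0.0078).

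Gnl3, nucleostemin, a GTPase of dividing cells, rose by 1.14 ± 0.18 in AKI_PBS (edgeR adjusted p = 0.000169). It was at 41.0, 45.0 and 61.5 CPM there, so replicate 3 stood above the others. Its fall of 0.47 ± 0.18 in AKI_PTPi_mEVs against AKI_PBS (edgeR adjusted p = 0.0399) was lost without any sham library, AKI_PBS replicate 3 or AKI_PTPi_mEVs replicates 1 or 3, where the change was -0.45 to -0.27. Nolc1, a chaperone that shuttles snoRNP proteins, was called against sham in AKI_PTPi_mEVs, at 0.62 ± 0.16 (edgeR adjusted p = 0.0206), and with library totals also in AKI_PBS, at 0.44. In the main fit it was 0.36 ± 0.15 above sham in AKI_PBS (edgeR adjusted p = 0.0665). It was 0.26 ± 0.15 higher in the vesicle group than in AKI_PBS and not called (edgeR adjusted p = 0.169). The calls of Gnl3 and Nolc1 in AKI_PTPi_mEVs against sham were lost without sham replicates 1 or 2 or AKI_PTPi_mEVs replicate 2, without sham replicate 3 for Gnl3, and without AKI_PTPi_mEVs replicate 1 for Nolc1, at 0.47 to 0.70.

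**Figure D3:**
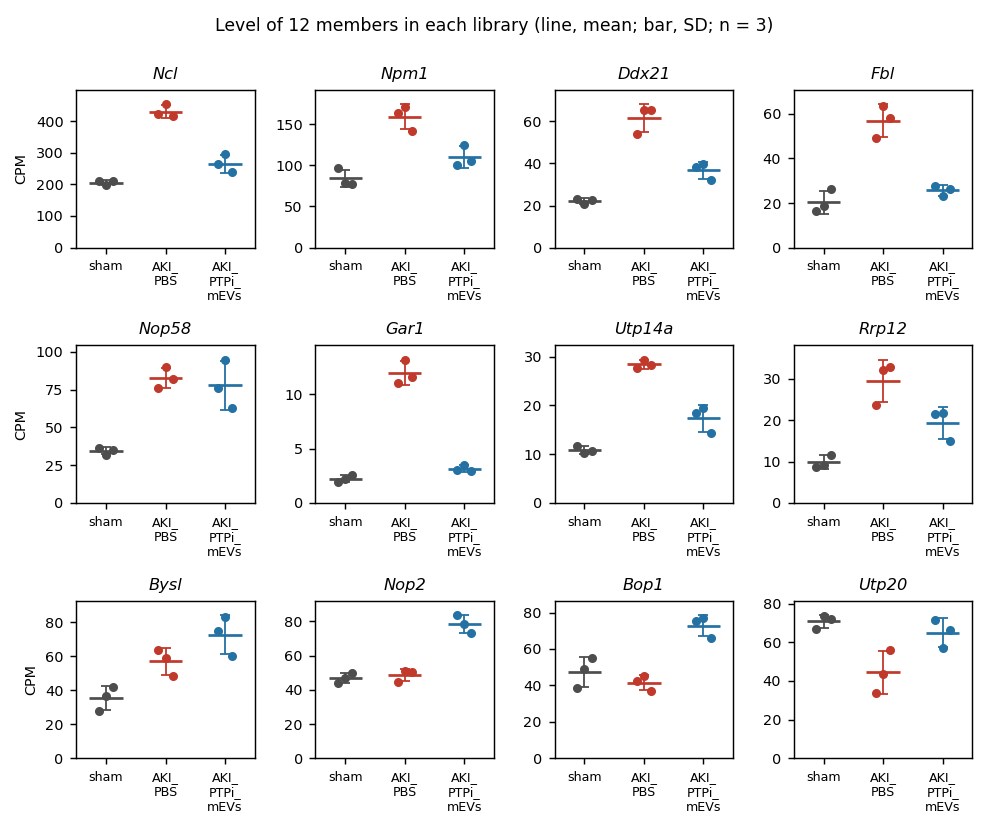
CPM of 12 members in each library, with points for libraries, a line for the group mean and bars for the SD. Ncl, Npm1, Ddx21, Fbl, Gar1 and Utp14a are highest in all 3 AKI_PBS libraries, Nop2 and Bop1 in all 3 AKI_PTPi_mEVs libraries, and Utp20 is lowest in AKI_PBS.

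In the box C/D particle, Fbl (25% of the role, near the 25.8% of all genes) was called lower in the vesicle group than in AKI_PBS. Nop56, Nop58 and Rrp9 were not called between these groups. Fbl, fibrillarin, the methyltransferase of the particle, was at 16.4, 18.5 and 26.1 CPM in sham, 49.2, 63.7 and 58.1 in AKI_PBS and 27.7, 22.9 and 26.5 in AKI_PTPi_mEVs. Every AKI_PBS library was above all others, and the vesicle libraries overlapped sham. Fbl rose by 1.49 ± 0.18 in AKI_PBS (edgeR adjusted p = 2.59e-05) and fell by 1.15 ± 0.18 between the injured groups (edgeR adjusted p = 0.00023). Nop58, a core protein that holds the guide RNA, was at 36.6, 31.9 and 35.1 CPM in sham, 76.4, 89.7 and 82.2 in AKI_PBS and 76.4, 95.0 and 62.7 in AKI_PTPi_mEVs. The injured groups overlapped and both lay above sham. Nop58 rose by 1.26 ± 0.16 in AKI_PBS (edgeR adjusted p = 2.92e-05) and by 1.18 ± 0.16 in AKI_PTPi_mEVs against sham (edgeR adjusted p = 0.000752), with -0.09 ± 0.15 between the injured groups (edgeR adjusted p = 0.664). Nop56, the partner of Nop58, was at 68.8, 66.0 and 65.9 CPM in sham, 92.8, 105 and 107 in AKI_PBS and 122, 125 and 88.3 in AKI_PTPi_mEVs. It rose by 0.61 ± 0.15 in AKI_PBS and by 0.74 ± 0.15 in AKI_PTPi_mEVs against sham (edgeR adjusted p = 0.00361 and 0.00682). Rrp9, a protein of the snoRNP that guides the earliest cuts, was not called, with 0.36 ± 0.16 in AKI_PBS against sham (edgeR adjusted p = 0.0759, called at 0.51 without AKI_PBS replicate 1 and at 0.44 with library totals).

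Of the 4 box H/ACA proteins, Gar1 and Dkc1 (50%, beside 27.8% of all genes) were called higher after injury and Nhp2 and Nop10 were not called. Gar1, a core protein of the particle, was at 1.96, 2.23 and 2.54 CPM in sham, 11.1, 13.2 and 11.6 in AKI_PBS and 3.03, 3.49 and 2.97 in AKI_PTPi_mEVs. These levels rest on 20 to 25 counts in sham, 128 to 154 in AKI_PBS and 27 to 33 in AKI_PTPi_mEVs. The groups did not overlap, and Gar1 was 5.31-fold higher in AKI_PBS than in sham, a log2 change of 2.41 ± 0.23 (edgeR adjusted p = 3.5e-06). It fell by 1.91 ± 0.22 between the injured groups (edgeR adjusted p = 2.31e-05) and was 0.49 ± 0.25 above sham in the vesicle group, not called (edgeR adjusted p = 0.204). Dkc1, dyskerin, the pseudouridine synthase, was at 34.4, 40.6 and 33.5 CPM in sham, 57.7, 61.0 and 43.7 in AKI_PBS and 55.4, 71.3 and 54.6 in AKI_PTPi_mEVs. Both injured groups lay above sham and overlapped each other. Dkc1 rose by 0.58 ± 0.16 in AKI_PBS (edgeR adjusted p = 0.0092) and by 0.74 ± 0.17 in AKI_PTPi_mEVs against sham (edgeR adjusted p = 0.0119). The latter call was lost without sham replicate 1 or AKI_PTPi_mEVs replicate 2, at 0.59 to 0.71. Nhp2, a core protein that binds the guide RNA, was not called, with -0.65 ± 0.23 in AKI_PTPi_mEVs against sham (edgeR adjusted p = 0.0802). It was called lower there without AKI_PBS replicate 3 or AKI_PTPi_mEVs replicate 2, and also lower than AKI_PBS in the same fits, at -0.59 and -0.66. Nop10, the smallest core protein, changed by 0.10 ± 0.18 in AKI_PBS and was not called.

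Ratios between partners show the same values free of library scaling. They compare libraries, not the amounts of the genes, since CPM is not per length, and they are given as a description, with no test run on them. The log2 ratio of Dkc1 to Gar1 was 4.01 ± 0.254 in sham, 2.17 ± 0.235 in AKI_PBS and 4.25 ± 0.0883 in AKI_PTPi_mEVs (SD, n = 3). The AKI_PBS libraries, from 1.92 to 2.38, lay below all others, which were at 3.72 or more. With the other partners Dkc1 took another order. The ratio of Dkc1 to Nhp2 was -1.77 ± 0.19, -0.94 ± 0.195 and -0.36 ± 0.274 in the same order of groups, and that of Dkc1 to Nop10 was -0.18 ± 0.269, 0.28 ± 0.0984 and 0.67 ± 0.236. In both, the vesicle libraries were highest and the 3 groups did not overlap. The ratio of Gar1 to Nhp2 was -5.79 ± 0.157, -3.11 ± 0.414 and -4.61 ± 0.341 with no overlap, and that of Gar1 to Nop10 was -4.19 ± 0.448, -1.89 ± 0.171 and -3.58 ± 0.244, where sham and the vesicle group overlapped. The ratio of Nhp2 to Nop10 was 1.60 ± 0.45, 1.22 ± 0.245 and 1.03 ± 0.217, and the 3 groups overlapped. The ratio of Fbl to Nop58 was -0.79 ± 0.367, -0.54 ± 0.0799 and -1.58 ± 0.418 in the same order, and that of Fbl to Nop56 was -1.75 ± 0.375, -0.84 ± 0.102 and -2.11 ± 0.357. For Fbl to Nop58 the vesicle libraries were lowest, and for Fbl to Nop56 the AKI_PBS libraries were highest. The ratio of Nop56 to Nop58 was 0.96 ± 0.0795, 0.30 ± 0.0778 and 0.52 ± 0.141, highest in sham, with no overlap of the groups. In the PeBoW complex of the large subunit, the ratio of Pes1 to Bop1 was 0.63 ± 0.117 in sham, 1.44 ± 0.0639 in AKI_PBS and 0.52 ± 0.0385 in AKI_PTPi_mEVs. The ratio of Pes1 to Wdr12 was 0.62 ± 0.206, 1.13 ± 0.0663 and 0.63 ± 0.0866. In both of these ratios the 3 AKI_PBS libraries were above the other 6. The ratio of Bop1 to Wdr12 was -0.013 ± 0.299, -0.31 ± 0.125 and 0.11 ± 0.0538, and sham overlapped both injured groups.

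**Figure D4:**
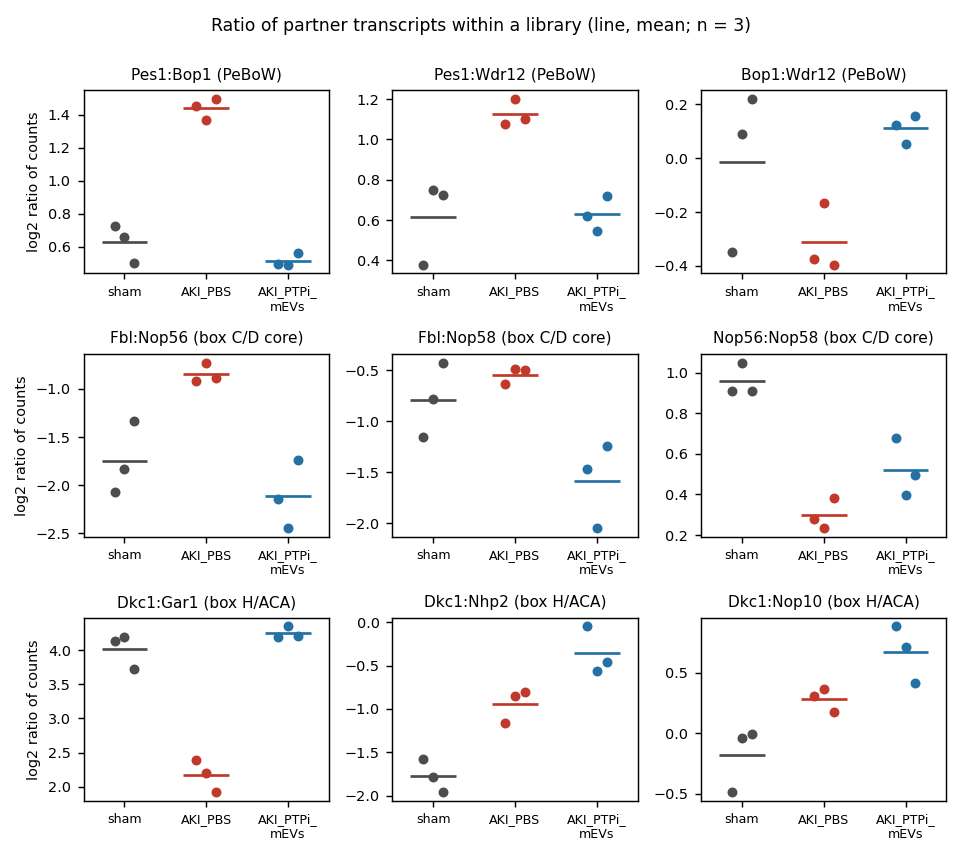
Log2 ratio of counts between partner proteins of one complex, 9 pairs, with a point for each library and a line for the group mean. The ratio of Dkc1 to Gar1 is about 4 in sham and AKI_PTPi_mEVs and near 2 in AKI_PBS, and the ratio of Pes1 to Bop1 is highest in the 3 AKI_PBS libraries.

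Of 13 early small subunit factors, 9 (69.2%, beside 27.8% of all genes) were called higher after injury and 1 (7.69%, beside 27.9%) lower. Utp14a, a processome protein that recruits a helicase in yeast, was at 11.8, 10.2 and 10.7 CPM in sham, 27.7, 29.4 and 28.3 in AKI_PBS and 18.4, 19.5 and 14.3 in AKI_PTPi_mEVs. The groups did not overlap, with the vesicle libraries in between. Utp14a rose by 1.39 ± 0.17 (edgeR adjusted p = 2.03e-05) and fell by 0.71 ± 0.16 between the injured groups (edgeR adjusted p = 0.00272). Utp18, a protein of the UtpB subcomplex whose E-box window is printed above, was at 8.62, 5.86 and 5.99 CPM in sham, 11.9, 18.3 and 15.6 in AKI_PBS and 6.79, 9.17 and 7.80 in AKI_PTPi_mEVs. Its vesicle libraries overlapped sham and lay below AKI_PBS. Utp18 rose by 1.16 ± 0.23 (edgeR adjusted p = 0.00106) and fell by 0.95 ± 0.23 (edgeR adjusted p = 0.00448). Nop14 and Noc4l bind each other in yeast. Nop14 was at 23.9, 21.8 and 25.0 CPM in sham, 43.4, 45.5 and 55.7 in AKI_PBS and 29.1, 30.3 and 26.2 in AKI_PTPi_mEVs. Noc4l was at 34.1, 37.9 and 40.5, then 78.3, 67.2 and 80.1, then 55.6, 60.7 and 51.4 CPM. For both genes the 3 groups did not overlap. Nop14 rose by 1.03 ± 0.15 and Noc4l by 1.0 ± 0.13 in AKI_PBS (edgeR adjusted p = 7.21e-05 and 4.81e-05). Between the injured groups they changed by -0.76 ± 0.14 and -0.43 ± 0.13 (edgeR adjusted p = 0.000869 and 0.0162), and the call of Noc4l was lost without AKI_PTPi_mEVs replicates 1 or 3, at -0.41 and -0.36.

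Utp20, a very large repeat protein of the processome, moved the other way. It was at 67.1, 73.5 and 72.0 CPM in sham, 33.8, 43.5 and 55.8 in AKI_PBS and 71.5, 56.9 and 66.6 in AKI_PTPi_mEVs. All AKI_PBS libraries lay below the other 6, and the vesicle libraries overlapped sham. Utp20 fell by 0.68 ± 0.17 in AKI_PBS against sham (edgeR adjusted p = 0.00471), the only member called lower there and in all 9 fits with a library left out. Between the injured groups it was 0.55 ± 0.17 higher in AKI_PTPi_mEVs (edgeR adjusted p = 0.0166), a call lost without AKI_PBS replicate 1 or AKI_PTPi_mEVs replicate 1, at 0.40 and 0.49. Rcl1, which acts in the cut that frees the small subunit RNA, was at 22.3, 22.0 and 42.1 CPM in AKI_PBS, so replicate 3 stood apart. It was called lower in AKI_PBS than in sham, and higher in AKI_PTPi_mEVs than in AKI_PBS, only without that library (-0.68 and 0.53, against -0.30 and 0.14 with it).

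Among the UtpA proteins, which link transcription to the processome, Heatr1 and Utp15 rose and Utp4 did not. Heatr1 rose by 1.11 ± 0.16 in AKI_PBS (edgeR adjusted p = 9.9e-05) and was 0.50 ± 0.16 lower in the vesicle group than in AKI_PBS (edgeR adjusted p = 0.0198), a call lost without AKI_PBS replicate 3 or AKI_PTPi_mEVs replicates 1 or 3 (-0.36 to -0.46). Utp15 rose by 0.91 ± 0.18 (edgeR adjusted p = 0.000779), with -0.37 ± 0.17 between the injured groups (edgeR adjusted p = 0.0955, called at -0.49 without AKI_PBS replicate 2 and at -0.46 with library totals). Utp4, at 41.6, 49.9 and 53.3 CPM in sham and 55.4, 46.9 and 54.6 in AKI_PBS, reached 68.5, 74.3 and 65.7 in AKI_PTPi_mEVs, above all other libraries. It was 0.41 ± 0.14 higher than in AKI_PBS (edgeR adjusted p = 0.0229), lost without AKI_PBS replicate 2 or AKI_PTPi_mEVs replicate 2 at 0.34 and 0.38, and with library totals at 0.31. Wdr43 and Wdr75, also of UtpA, rose by 0.52 ± 0.14 and 0.48 ± 0.16 in AKI_PBS (edgeR adjusted p = 0.00581 and 0.0217), Wdr75 not without sham replicates 2 or 3 (0.49 and 0.41). The helicase gene Ddx10 rose by 0.96 ± 0.17 (edgeR adjusted p = 0.000498) and fell by 0.69 ± 0.17 between the injured groups (edgeR adjusted p = 0.00526). Emg1, an rRNA methyltransferase, was not called. Against sham in AKI_PTPi_mEVs, Heatr1, Noc4l, Utp14a, Utp4 and Wdr43 were called higher, 38.5% of the role beside 7.43% of all genes. Each lost its call without sham replicate 2 and without AKI_PTPi_mEVs replicate 2 among others (0.43 to 0.67 over all such fits).

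Of the 6 late small subunit factors, 4 (66.7%, beside 27.8% of all genes) were called higher in AKI_PBS than in sham. In AKI_PTPi_mEVs 5 (83.3%, beside 7.43%) were called above sham, of which only Bysl and Ltv1 in all 9 fits with a library left out. Rrp12, an export factor, was at 8.62, 9.21 and 11.7 CPM in sham, 23.7, 32.2 and 32.8 in AKI_PBS and 21.4, 21.6 and 14.8 in AKI_PTPi_mEVs. The 3 groups did not overlap. Rrp12 rose by 1.59 ± 0.21 in AKI_PBS (edgeR adjusted p = 4.09e-05) and was 0.61 ± 0.20 lower in the vesicle group than in AKI_PBS (edgeR adjusted p = 0.0204). This fall was lost without AKI_PBS replicates 2 or 3 or AKI_PTPi_mEVs replicate 3, at -0.55 to -0.44. Bysl, bystin, needed for late maturation, was at 27.8, 36.7 and 41.9 CPM in sham, 63.9, 59.0 and 48.4 in AKI_PBS and 74.7, 83.3 and 60.2 in AKI_PTPi_mEVs. Both injured groups lay above sham and overlapped each other, and the change in AKI_PTPi_mEVs against sham was 1.04 ± 0.18 (edgeR adjusted p = 0.00323). Ltv1, an assembly factor of the head of the subunit, was at 28.7, 30.1 and 32.9 CPM in sham, 52.0, 48.2 and 48.0 in AKI_PBS and 52.4, 57.7 and 44.2 in AKI_PTPi_mEVs. It rose by 0.69 ± 0.14 in AKI_PBS and by 0.75 ± 0.14 in AKI_PTPi_mEVs against sham (edgeR adjusted p = 0.000963 and 0.00453).

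Pno1, the partner of the endonuclease Nob1, showed no call after injury, at 88.7, 83.5 and 93.3 CPM in sham and 105, 92.5 and 82.3 in AKI_PBS. It was at 123, 138 and 117 CPM in AKI_PTPi_mEVs, above the other 6 libraries. Its difference between the injured groups was 0.44 ± 0.13 (edgeR adjusted p = 0.0149), lost at 0.38 without AKI_PTPi_mEVs replicate 2 and at 0.33 with library totals. Nob1 itself, which makes the last cut of the small subunit RNA, was not called, with 0.30 ± 0.14 in AKI_PBS against sham (edgeR adjusted p = 0.0748, called at 0.38 with library totals). Tsr1, a GTPase-like factor, rose by 0.55 ± 0.17 in AKI_PBS (edgeR adjusted p = 0.0162), a call lost at 0.49 without sham replicate 2. The calls of Pno1, Rrp12 and Tsr1 against sham in AKI_PTPi_mEVs were lost without sham replicate 2 and without AKI_PTPi_mEVs replicate 2 (0.42 to 0.93 over all fits that lost them, which for Pno1 and Tsr1 included others).

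Of the 20 large subunit factors, 12 (60%, beside 27.8% of all genes) were called higher and 0 lower in AKI_PBS against sham. In AKI_PTPi_mEVs against AKI_PBS 7 were called lower (35%, beside 25.8%) and 5 higher (25%, beside 25.4%). Rrp1b, of the nucleolar RRP1 family, was at 17.7, 21.5 and 21.9 CPM in sham, 43.7, 50.0 and 73.2 in AKI_PBS and 33.6, 36.0 and 31.5 in AKI_PTPi_mEVs. Brix1, which acts in early large subunit assembly, was at 56.8, 47.2 and 49.3 CPM in sham, 130, 106 and 148 in AKI_PBS and 74.6, 102 and 69.1 in AKI_PTPi_mEVs. For both the 3 groups did not overlap. Rrp1b rose by 1.45 ± 0.19 and Brix1 by 1.33 ± 0.17 in AKI_PBS (edgeR adjusted p = 4.09e-05 and 4.18e-05). They were 0.72 ± 0.18 and 0.65 ± 0.17 lower in the vesicle group than in AKI_PBS (edgeR adjusted p = 0.00568 and 0.00672). Noc2l, a transport factor of early particles, was at 14.0, 14.8 and 14.8 CPM in sham, 32.0, 43.6 and 29.2 in AKI_PBS and 21.9, 18.9 and 18.4 in AKI_PTPi_mEVs. It rose by 1.26 ± 0.17 and fell by 0.82 ± 0.17 (edgeR adjusted p = 6.23e-05 and 0.00156). Gnl2, a GTPase, and Mrto4, which holds the place of a stalk protein, were also called higher after injury and lower in the vesicle group in all 9 fits with a library left out. Mrto4 has named pseudogenes in the annotation, so its counts may be split. Only pseudogenes that carry a member's own symbol were searched for, so those of other members under other names would be missed. Ddx27, a helicase, and Nip7 had the same calls, and lost the second without AKI_PTPi_mEVs replicate 3 and other libraries (-0.29 to -0.38).

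The 5 large subunit members called higher in AKI_PTPi_mEVs than in AKI_PBS, a share near that of all genes, were Nop2, Bop1, Ddx56, Noc3l and Wdr12. Nop2, an rRNA cytosine methyltransferase whose promoter window is printed above, was at 44.0, 47.1 and 49.7 CPM in sham, 44.3, 50.9 and 50.5 in AKI_PBS and 83.7, 78.5 and 72.9 in AKI_PTPi_mEVs. Sham and AKI_PBS overlapped, and every vesicle library was above both. Nop2 changed by 0.05 ± 0.13 after injury (edgeR adjusted p = 0.751) and was 0.69 ± 0.13 higher in AKI_PTPi_mEVs than in AKI_PBS (edgeR adjusted p = 0.000613). Bop1, of the PeBoW complex, was at 38.6, 48.9 and 55.1 CPM in sham, 42.5, 45.2 and 37.0 in AKI_PBS and 75.2, 77.2 and 66.2 in AKI_PTPi_mEVs. Its difference between the injured groups was 0.81 ± 0.15 (edgeR adjusted p = 0.000795). Ddx56, a helicase, was at 83.7, 97.8 and 97.6 CPM in sham, 88.8, 87.1 and 78.7 in AKI_PBS and 131, 140 and 120 in AKI_PTPi_mEVs. Its difference was 0.62 ± 0.13 (edgeR adjusted p = 0.00137). Noc3l, a partner of Noc2l in yeast, was at 6.76, 6.05 and 6.30 CPM in sham, 6.74, 6.69 and 8.13 in AKI_PBS and 12.1, 12.4 and 9.45 in AKI_PTPi_mEVs. It was 0.66 ± 0.20 higher in the vesicle group than in AKI_PBS (edgeR adjusted p = 0.0153), lost at 0.61 without AKI_PTPi_mEVs replicate 2. Wdr12, also of PeBoW, was 0.39 ± 0.13 higher (edgeR adjusted p = 0.0214), lost without AKI_PBS replicate 2 or AKI_PTPi_mEVs replicates 1 or 2 (0.34 to 0.39) and with library totals (0.29). Of the 8 cycling cell markers, 2 were called higher, 2 lower and 4 not called in AKI_PTPi_mEVs against AKI_PBS. These shares, 25% each way, were near the 25.4% and 25.8% of all genes. The replication helicase genes Mcm2 and Mcm5 were higher by 1.57 ± 0.17 and 2.99 ± 0.23 (edgeR adjusted p = 1.38e-05 and 1.48e-06). Ccnb1, a mitotic cyclin, and Birc5, survivin, were lower, at -1.93 ± 0.57 and -1.48 ± 0.44 (edgeR adjusted p = 0.0138 and 0.0129). The proliferation marker Mki67 was -0.91 ± 0.48 and not called (edgeR adjusted p = 0.132).

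The remaining large subunit members were not called between the injured groups. Pes1, the remaining PeBoW protein, was at 64.0, 77.3 and 77.9 CPM in sham, 116, 117 and 104 in AKI_PBS and 106, 109 and 97.6 in AKI_PTPi_mEVs. It rose by 0.62 ± 0.13 in AKI_PBS (edgeR adjusted p = 0.00119) and changed by -0.11 ± 0.13 between the injured groups (edgeR adjusted p = 0.481). Ftsj3, an rRNA methyltransferase, was at 51.8, 47.7 and 58.2 CPM in sham, 80.5, 83.6 and 88.5 in AKI_PBS and 85.6, 93.0 and 76.3 in AKI_PTPi_mEVs. It rose by 0.68 ± 0.13 and, in AKI_PTPi_mEVs against sham, by 0.69 ± 0.13 (edgeR adjusted p = 0.000746 and 0.00519). Ebna1bp2, a large subunit assembly factor, rose by 0.73 ± 0.16 in AKI_PBS (edgeR adjusted p = 0.00161). Rrp1, the relative of Rrp1b, and the helicase gene Ddx18 rose by 0.39 ± 0.13 and 0.43 ± 0.14 (both edgeR adjusted p = 0.0205), and lost these calls without sham replicates 1 or 2, without AKI_PBS replicate 1 for Rrp1 and without AKI_PBS replicate 2 for Ddx18 (0.31 to 0.42). Rrs1, Nop16 and Ddx51 were not called in any comparison, except Nop16 in AKI_PBS against sham, at 0.44 without AKI_PBS replicate 3 and at 0.43 with library totals. Of the 11 large subunit members (55%, beside 7.43% of all genes) called above sham in AKI_PTPi_mEVs, only Nop2 and Ftsj3 were called in all 9 fits. The other 9 lost the call without AKI_PTPi_mEVs replicate 2 and without sham replicate 2, and in some cases without other libraries (0.40 to 0.83).

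Other factors of the same pathway, on lists with 113 tested genes, are given beside the set. In AKI_PBS against sham 55 (48.7%, beside 27.8% of all genes) were called higher and 3 (2.65%, beside 27.9%) lower, with a median of 0.40. In AKI_PTPi_mEVs against AKI_PBS 11 (9.73%, beside 25.4%) were called higher and 28 (24.8%, near the 25.8% of all genes) lower, with a median of -0.14. Against sham in AKI_PTPi_mEVs 22 (19.5%, beside 7.43%) were called higher and 1 (0.885%, beside 5.79%) lower, with a median of 0.26. The shares of the separate lists called higher after injury are likewise to be set beside 27.8%. Among other RNA polymerase I genes, 5 of 14 (35.7%) were called higher after injury, led by Taf1d, a subunit of the promoter selectivity factor, which rose by 1.44 ± 0.21 (edgeR adjusted p = 8.95e-05) and fell by 1.52 ± 0.21 between the injured groups (edgeR adjusted p = 8.66e-05). Baz2a, a subunit of a complex that silences ribosomal DNA, rose by 0.79 ± 0.14 and fell by 0.70 ± 0.14. Of 37 other small subunit factors 16 (43.2%) were called higher, among them the kinase genes Riok3 at 1.29 ± 0.12 and Riok1 at 1.16 ± 0.17. Of 39 other large subunit factors 25 (64.1%) were called higher and 1 lower. Eif6, which keeps immature large subunits from joining, rose by 1.85 ± 0.19 in AKI_PBS and was 1.18 ± 0.19 above sham in the vesicle group (edgeR adjusted p = 7e-06 and 0.00222). It was called lower in AKI_PTPi_mEVs than in AKI_PBS, at -0.67 (edgeR adjusted p = 0.00956). Las1l, which cuts the spacer of the large subunit RNA, rose by 1.24 ± 0.14 and fell by 0.87 ± 0.13. In snoRNP assembly 4 of 10 (40%) were called higher and 1, Pih1d1, lower, at -0.95 ± 0.19, while the assembly factor gene Znhit6 rose by 0.88 ± 0.15. Of 13 tested RNA exosome genes, which trim the RNA ends, 5 (38.5%) were called higher and 1 lower, with Dis3, a nuclease subunit, at 1.18 ± 0.17 and the cofactor gene Mphosph6 at 1.20 ± 0.18. In AKI_PTPi_mEVs against AKI_PBS, Riok3, Riok1 and Mphosph6 were called lower, at -0.86, -0.91 and -0.97, and Pih1d1 higher, at 0.84. Znhit6 and Dis3 were not called there.

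**Figure D5:**
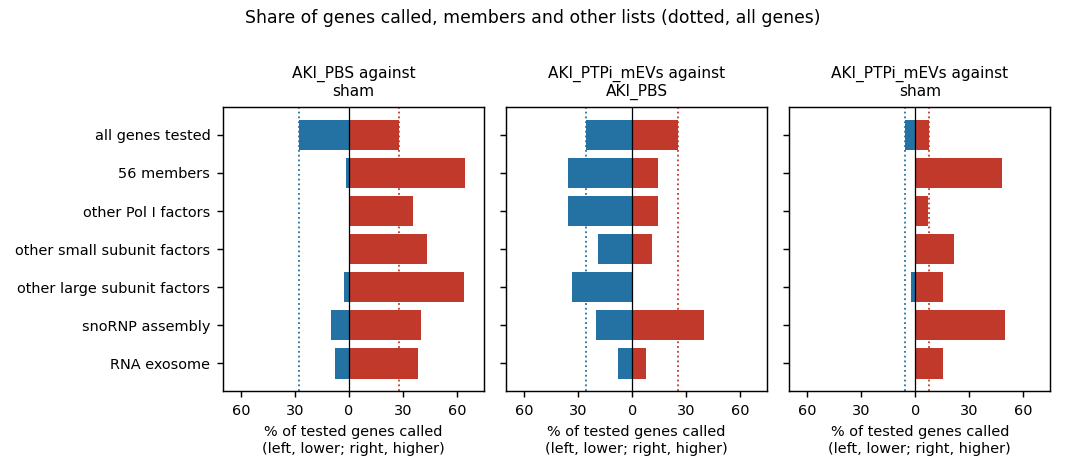
Share of genes called higher and lower in each comparison, in percent, for the 56 members, 5 related lists and all genes tested, with lower calls to the left and higher calls to the right. In AKI_PBS against sham 64.3% of members and 27.8% of all genes were called higher, and in AKI_PTPi_mEVs against sham 48.2% and 7.43%.

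Myc, a transcription factor known to drive many ribosome biogenesis genes, was at 12.7, 16.4 and 20.5 CPM in sham, 84.6, 63.6 and 200 in AKI_PBS and 59.6, 82.1 and 49.9 in AKI_PTPi_mEVs. Replicate 3 of AKI_PBS was above every other library, and the injured groups overlapped. Myc rose by 2.81 ± 0.40 in AKI_PBS (edgeR adjusted p = 0.000156) and was 1.95 ± 0.39 above sham in the vesicle group (edgeR adjusted p = 0.00974). Its change in AKI_PTPi_mEVs against AKI_PBS was -0.86 ± 0.37 and not called (edgeR adjusted p = 0.0717). That difference was -0.21 without AKI_PBS replicate 3, and it was called without AKI_PBS replicates 1 or 2, with DESeq2 and with library totals. The call against sham was lost with no filter on low counts, at 1.96. Of the 11 genes of the MYC network, 4 (36.4%, beside 27.8% of all genes) were called higher and 1 lower after injury. The lower gene was Mlx, a dimer partner of the network, which fell by 1.15 ± 0.17 in AKI_PBS and was 1.16 ± 0.17 higher in AKI_PTPi_mEVs than in AKI_PBS (edgeR adjusted p = 0.000105 and 0.00013).

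The strand setting of the counting is not given in the sources used here. In the mouse annotation, 20 members have an exon that overlaps a gene on the opposite strand, and their reads could not be told apart without it. Of these 20 members, 14 were called higher and 0 lower in AKI_PBS against sham, beside 27.8% and 27.9% of all genes. Of the other 36, 22 were called higher and 1 lower. In AKI_PTPi_mEVs against AKI_PBS 3 of the 20 were called higher and 7 lower, beside 25.4% and 25.8% of all genes. Of the 36, 5 were higher and 13 lower there. In AKI_PTPi_mEVs against sham 13 of the 20 and 14 of the 36 were called higher, beside 7.43%. The part of overlapping reads in these counts was not tested. Ncl, Gnl3, Nop56 and Nop58 hold snoRNA genes on the same strand.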

How the data were processed

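Whole-number gene counts of 9 kidney libraries were used as the authors deposited them. Phenol-chloroform extraction and a Tn5-based kit started from 100 ng of total RNA, per the labels' protocols. The submitters' processing notes name STAR and HTSeq without versions, and a human build, GRCh38.p14, although the identifiers are mouse ones. The build was therefore not settled, and coordinates are given only for sequences of the RefSeq table. Groups were taken from the titles for sham and AKI_PBS and from the treatment label for AKI_PTPi_mEVs, and 0 columns were left unmapped. A title in the last group spells the vesicles PTP@mEVs, while its treatment label reads PTPi@mEVs.

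In R 4.3.3, edgeR 4.0.16 filtered genes by group (filterByExpr), scaled by TMM and fitted all 9 libraries together (glmQLFit, robust, 6 residual degrees of freedom), with glmQLFTest for each pair of groups. These steps were also run on simulated counts with far fewer changed genes than were called here. That run does not show how the scaling holds in these data. Alternatives used DESeq2 1.42.0, voom of limma 3.58.1, other scalings, filters and designs, and each library left out. Members and lists were chosen with earlier results of these data known. Values in every library are given for the 2 members of each role with the smallest adjusted p after injury and the 1 with the smallest between the injured groups, for the 6 largest called changes each way in each comparison, and for up to 12 members called in AKI_PTPi_mEVs against sham. Related lists name up to 2 genes each, by adjusted p. Other members were named after their values were seen. The labels name no molecular identifiers, and 4 related genes were matched under older symbols.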

Additional observations from a re-analysis of the deposited data

How the results depend on the processing

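With 3 libraries a group and no stated animals, small changes are limited most. The counts of calls held within 1.5 times under size factors of relative log expression, DESeq2, voom and the stricter filter (mean CPM of at least 5). Library totals moved the median of all genes to 0.11 in AKI_PBS against sham and -0.13 in AKI_PTPi_mEVs against AKI_PBS, and the split of all calls to 3757 higher and 5048 lower in the latter, against 4320 and 4391. They left 5 members higher there and a member median of -0.20. In AKI_PBS against sham they gave 41 members higher, beside 5250 of all genes higher and 4301 lower. The main fit had 36 members higher in that comparison, beside 4734 and 4754 of all genes. With no filter, and with only the groups compared, 1 member, Nhp2, was called lower in AKI_PTPi_mEVs than in sham. The replicate numbers showed no clear pairing: over 9 pairs of same-numbered libraries the correlations of deviations were -0.187 to 0.111. With 3 libraries a group, such values do not settle whether the numbers pair the libraries. With a replicate block, 36 members were higher and 1 lower in AKI_PBS against sham, 8 higher and 19 lower between the injured groups, and 26 higher against sham. Of all genes 4543 were then higher and 4670 lower, 4276 and 4215, and 1121 and 929, in the same order. Asking for a log2 change of at least 1 as well left 5227, 4570 and 987 genes, with 16 members higher and 0 lower in AKI_PBS against sham, 0 higher and 2 lower between the injured groups, and 2 higher in AKI_PTPi_mEVs against sham. The Ptpn1 changes of 0.71 and -0.53 do not pass it.

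Of the calls of the genes named, none was lost with relative log expression, DESeq2 or voom. Library totals ended Pno1, Utp4 and Wdr12 between the injured groups and Ebna1bp2 against sham (0.50). They added more calls than they ended, 9 against 4: Polr1b 0.35, Nolc1 0.44, Rrp9 0.44, Nob1 0.38 and Nop16 0.43 after injury, and Utp15 -0.46, Znhit6 -0.43, Dis3 -0.49 and Myc -0.94 between the injured groups. DESeq2 added 4 (Myc between the injured groups, and Ncl, Wdr75 and Rrp1 in AKI_PTPi_mEVs against sham). No filter added 2, the stricter filter 2 and only the groups compared 4. Without a filter, Polr1a, Polr1c, Wdr75, Rrp1 and Ddx18 after injury, Noc4l, Gnl3, Ddx27 and Nip7 between the injured groups, and Riok3 and Myc against sham were not called. The stricter filter ended Polr1a and Ebna1bp2, and only the groups compared ended Polr1a, Gnl3 and Ddx27. Under the block Gnl3, Riok3, Znhit6 and Ebna1bp2 were not called.

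Leaving out each library gave 8028 to 9650, 7337 to 8743 and 878 to 3395 called genes in AKI_PBS against sham, AKI_PTPi_mEVs against AKI_PBS and AKI_PTPi_mEVs against sham. Members called higher were 30 to 36, 4 to 9 and 7 to 35, and lower 1 to 2, 14 to 20 and 0 to 1. The member medians were 0.55 to 0.61, -0.16 to -0.05 and 0.42 to 0.55.

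No called change turned its sign. Uncalled ones near 0 did, and the cause was not tested. Between the injured groups, relative log expression gave Ddx18 -1e-04. Library totals gave Ltv1 -0.047, Ftsj3 -0.091, Rrp9 -0.045, Wdr43 -0.075, Wdr75 -0.073, Emg1 -0.075, Nob1 -0.070, Rrp1 -0.10 and Ddx18 -0.10, and the stricter filter Ftsj3 -0.022, Wdr43 -0.0096, Wdr75 -0.0059, Nob1 -0.005, Rrp1 -0.033 and Ddx18 -0.035. Mlx against sham in AKI_PTPi_mEVs was -0.003, -0.044 and -0.0081 with library totals, the stricter filter and only the groups compared. With libraries left out, the ranges in AKI_PBS against sham were -0.0053 to 0.11 for Nop2, -0.022 to 0.16 for Pno1 and -0.031 to 0.22 for Nop10. Those in AKI_PTPi_mEVs against AKI_PBS were -0.17 to 0.020 for Polr1a, -0.19 to 0.018 for Polr1c, -0.22 to 0.052 for Ubtf, -0.23 to 0.065 for Nop58, -0.088 to 0.18 for Rrp9, -0.0125 to 0.17 for Ltv1, -0.036 to 0.10 for Ftsj3, -0.028 to 0.15 for Wdr43, -0.052 to 0.13 for Wdr75, -0.017 to 0.53 for Rcl1, -0.0685 to 0.22 for Emg1, -0.021 to 0.15 for Nob1, -0.021 to 0.057 for Rrp1, -0.23 to 0.15 for Rrs1 and -0.0048 to 0.061 for Ddx18. In AKI_PTPi_mEVs against sham they were -0.23 to 0.14 for Taf1d, -0.12 to 0.15 for Mlx, -0.21 to 0.037 for Pih1d1, -0.050 to 0.37 for Mphosph6, -0.23 to 0.04 for Nop10 and -0.07 to 0.42 for Ddx51.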
